A study of Mus musculus with 8 samples.

Results

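Isl1, Foxc1, Foxc2, Foxf1, Six2 and Eya1 encode transcription regulators of the second heart field and of the pharyngeal region beside it. They were taken by symbol, each matched to its Entrez ID, and all 6 were found among the 27179 genes of the count table. RNA was sequenced from whole mouse hearts of the E10.5 stage: 3 hearts without a functional Kat6a allele (Kat6a KO, genotype Kat6a-/-) and 5 wild-type hearts (Kat6a WT, genotype Kat6a+/+). Kat6a, also called Moz, is a histone acetyltransferase. No treatment, strain, sex or litter is given in the labels for either group, and the allele itself is not described in the sources used here. Each heart is its own library, with 19911803 to 34539787 counts, and nothing says how much of the outflow tract, the venous pole or the tissue around them was left on a heart at dissection. Kat6a KO replicate 1 stood apart in immediate early genes, with Egr1 at 55.7 CPM against at most 15.3 CPM in any other heart, and Kat6a WT replicates 4 and 5 were the hearts with Xist RNA. Where a call reported below was lost without these hearts, that is stated.

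The second heart field is a population of mesodermal progenitors behind and in front of the early heart tube. Its cells are added to the outflow tract and right ventricle at the arterial pole and to the atria at the venous pole, and they lie against the pharyngeal endoderm and the neural crest of the pharyngeal arches. Isl1, a LIM homeodomain factor, marks these progenitors and is lowered as they become heart muscle. Foxc1 and Foxc2 are closely related forkhead factors of the mesoderm and of the endocardium and cushions. Foxf1 is a forkhead factor of splanchnic mesoderm that answers to hedgehog signals. Six2 is a homeodomain factor of progenitor cells, and Eya1 is a transcriptional partner of Six2 and its relatives with a phosphatase domain. In mice, loss of Kat6a is known to affect the aortic arch and the ventricular septum.

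Of the 6 genes, Foxc1 fell in Kat6a KO hearts and the other 5 did not pass the test. Foxc1 averaged 21.2 ± 1.71 CPM in Kat6a KO hearts and 33.0 ± 4.86 CPM in Kat6a WT hearts (SD, n = 3 and n = 5; CPM are read counts scaled to library size), which is 35.7% lower. Foxc2, its nearest relative, lay lower in every Kat6a KO heart than in any Kat6a WT heart, by a smaller amount and without passing the threshold. Over all genes tested, 4.81% had all Kat6a KO hearts under all Kat6a WT hearts. Isl1 averaged about the same in both groups, with a spread between hearts of the same genotype wide enough to hide a change of nearly 1 log2 unit either way. Six2 and Eya1 had lower means in Kat6a KO hearts that did not pass, and the mean of Foxf1 was set by a single Kat6a WT heart. All 6 passed the filter on low counts. Over all 15086 genes tested, 2.67% were called at an adjusted p under 0.05 (edgeR, Benjamini-Hochberg), 1.23% as fallen and 1.44% as risen, so 1 call among 6 genes chosen with earlier results known is given as a description of these genes only.

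**Figure D1:**
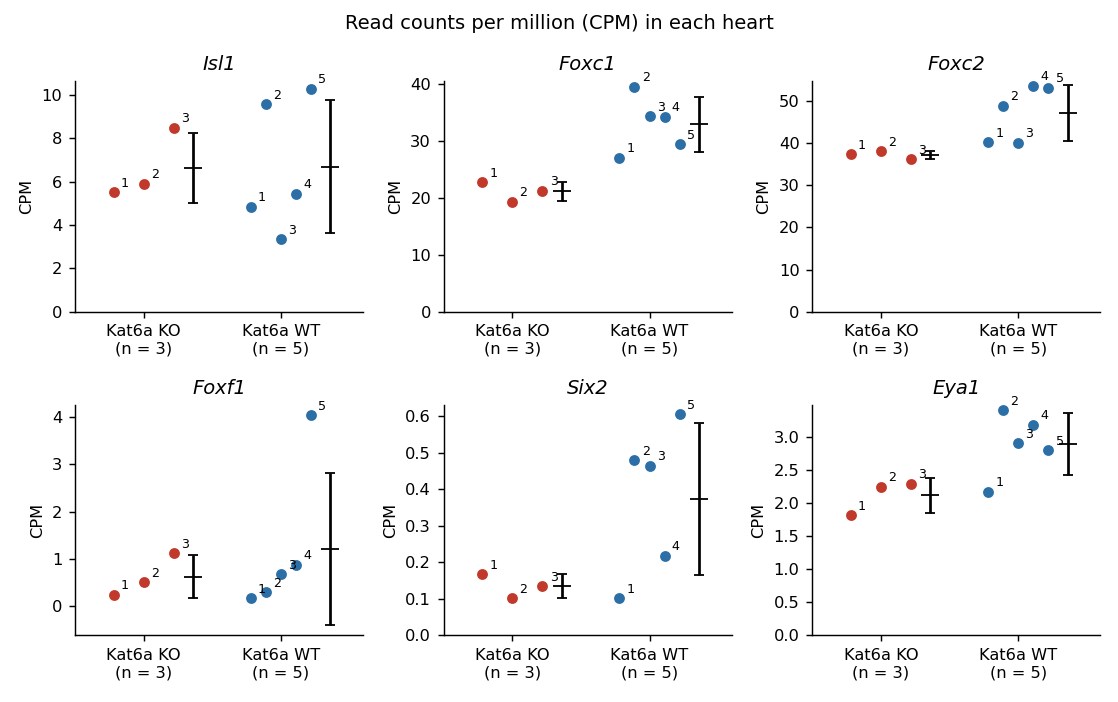
Level of each gene in each heart, in CPM on a linear axis, with Kat6a KO hearts in red and Kat6a WT hearts in blue. Digits are replicate numbers, and the bars beside the points are the mean ± SD. The 3 Kat6a KO hearts lie under all 5 Kat6a WT hearts for Foxc1 and Foxc2 and overlap them for the other 4 genes. Of all genes tested, 4.81% have the Kat6a KO hearts under all Kat6a WT hearts.

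Levels between genes were compared per kilobase of the gene length in the deposited table. In Kat6a KO hearts they were 13.6 ± 0.365 CPM per kilobase for Foxc2, 5.31 ± 0.428 for Foxc1, 2.63 ± 0.643 for Isl1, 0.586 ± 0.429 for Foxf1, 0.486 ± 0.0613 for Eya1 and 0.0639 ± 0.0156 for Six2 (SD, n = 3). In Kat6a WT hearts the same level was 17.3 ± 2.44 for Foxc2, 8.26 ± 1.22 for Foxc1, 2.65 ± 1.21 for Isl1, 1.14 ± 1.52 for Foxf1, 0.664 ± 0.108 for Eya1 and 0.177 ± 0.0983 for Six2 (SD, n = 5). The order of the means was the same in both groups. Foxf1 and Eya1 differed by less than the SD of Foxf1 in either group. In Kat6a WT hearts Isl1 and Foxf1 differed by about the SD of Foxf1. The other neighbours in the order lay farther apart than their SDs. The table gives Foxf1 a length of 1062 bases, against 2415 exonic bases in GENCODE M21, and Eya1 4345 bases, against 7808. With the GENCODE lengths Foxf1 stood at 0.258 ± 0.189 and Eya1 at 0.271 ± 0.0341 CPM per kilobase in Kat6a KO hearts (SD, n = 3), and at 0.5 ± 0.666 and 0.37 ± 0.0599 in Kat6a WT hearts (SD, n = 5), again within the SD of Foxf1. The 2 Foxc genes together made up 82.6% to 88.6% of the summed CPM of the 6 genes in Kat6a KO hearts and 82.3% to 91.0% in Kat6a WT hearts.

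Foxc1 and Foxc2 are very alike in places. Foxc1 is on chromosome 13 from 31806646 to 31810635 and Foxc2 on chromosome 8 from 121116171 to 121118895 (mm10), both on the plus strand. The most alike ungapped stretch of 90 bases between their transcripts lies in the coding sequence of both, at 31807646 to 31807735 in Foxc1 and 121117032 to 121117121 in Foxc2, where 89 bases are identical. It is shown because it is where a read is hardest to assign. Capitals mark the base that differs, C54T from Foxc1 to Foxc2, counted from 1 at the 5' end of the stretch:
Foxc1: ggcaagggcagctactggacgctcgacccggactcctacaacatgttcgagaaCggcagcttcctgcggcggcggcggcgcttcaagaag
Foxc2: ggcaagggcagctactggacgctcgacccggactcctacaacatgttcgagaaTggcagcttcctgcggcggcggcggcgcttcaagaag
Outside that stretch they part quickly. Of 5795 different 50-base words in the GENCODE transcripts of Foxc1, 4 also occur in another gene, and all 4 belong to Foxc2, whose transcripts hold 2676 words. Isl1 and Eya1 share no such word with another gene. Foxf1 shares 49 of 2366 words (2.07%), all with an antisense microRNA gene, and Six2 21 of 2044 (1.03%), which recur in 264 genes in the same sense and 204 in the opposite sense.

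Foxc1 had 22.8, 19.4 and 21.3 CPM in Kat6a KO replicates 1 to 3, from 682, 382 and 474 reads. In Kat6a WT replicates 1 to 5 it had 27.1, 39.6, 34.4, 34.3 and 29.5 CPM, from 800, 827, 1185, 788 and 730 reads. The groups did not overlap, and the lowest Kat6a WT heart, replicate 1, stood closest to the Kat6a KO hearts. The fitted log2 fold change of Foxc1 was -0.63 ± 0.11 (SE; 95% interval -0.86 to -0.40; adjusted p = 0.00304 by edgeR with Benjamini-Hochberg), lower in 3 of 3 Kat6a KO hearts. Among genes tested, 4.81% had all Kat6a KO hearts under all Kat6a WT hearts and 4.77% had them above. Foxc1 passed in all 18 alternative fits, with a log2 fold change of -0.70 to -0.56 and adjusted p-values of at most 0.0456, the largest being that of edgeR with the replicate number as a block. Its neighbour Gmds, a sugar-nucleotide enzyme gene 7103 bases away on the other strand, averaged 19.97 ± 0.783 CPM in Kat6a KO hearts and 19.3 ± 1.11 CPM in Kat6a WT hearts.

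Foxc2 had 37.4, 38.0 and 36.1 CPM in Kat6a KO replicates 1 to 3. In Kat6a WT replicates 1 to 5 it had 40.2, 48.8, 40.1, 53.6 and 53.1 CPM. All 3 Kat6a KO hearts lay within 2 CPM of each other and under every Kat6a WT heart, of which replicates 1 and 3 were the lowest. Such a separation, with Kat6a KO below, was present in 4.81% of all genes tested. The log2 fold change of Foxc2 was -0.34 ± 0.10 (SE; 95% interval -0.55 to -0.13 before adjustment) and its edgeR adjusted p was 0.0929, so it did not pass. It passed with DESeq2 (adjusted p = 0.0213), which called 3.85% of all genes, and in edgeR without Kat6a WT replicate 1 or replicate 3 (adjusted p = 0.015 and 0.0285). Its adjusted p over all alternatives was 0.015 to 0.327. The log2 fold change of Foxc2 was smaller with the replicate block (-0.20; adjusted p = 0.327), with Xist RNA as a covariate (-0.20; 0.257) and without the 2 Kat6a WT hearts that had Xist RNA, replicates 4 and 5 (-0.21; 0.267), which were its highest hearts. Foxc2 stood at 1.64, 1.96 and 1.69 times the CPM of Foxc1 in Kat6a KO replicates 1 to 3, against 1.48, 1.23, 1.17, 1.56 and 1.8 times in Kat6a WT replicates 1 to 5. That ratio did not separate the groups (exact permutation test on its log2, two-sided, p = 0.143; the smallest possible is 0.0357), so a larger change of Foxc1 than of Foxc2 was not shown. Of the genes around Foxc2, Foxl1, a forkhead gene 9045 bases away, averaged 1.92 ± 0.429 CPM in Kat6a KO hearts and 2.14 ± 0.308 CPM in Kat6a WT hearts, and Mthfsd 15.7 ± 1.31 CPM in Kat6a KO hearts and 17.5 ± 1.78 CPM in Kat6a WT hearts.

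Isl1 lies on chromosome 13 from 116298270 to 116309688 on the minus strand. It had 5.52, 5.90 and 8.50 CPM in Kat6a KO replicates 1 to 3, from 165, 116 and 189 reads. In Kat6a WT replicates 1 to 5 it had 4.84, 9.58, 3.34, 5.44 and 10.3 CPM, from 143, 200, 115, 125 and 255 reads. The groups overlapped fully, with Kat6a WT replicates 2 and 5 the highest hearts, Kat6a WT replicate 3 the lowest, and Kat6a KO replicate 3 the highest of its group. The log2 fold change of Isl1 was 0.0009 ± 0.41 (SE; 95% interval -0.97 to 0.97; edgeR, adjusted p = 0.999), which leaves a fold between 0.512 and 1.96. Its coefficient of variation among Kat6a WT hearts was 45.8%, above that of 98.3% of the 1260 tested genes within 0.5 log2 CPM of its average, whose median was 13.2%. Cranial and peripheral ganglia also express Isl1. The neuronal and ganglion genes listed for that reason, without Hand2, summed to 23.2 to 27.3 CPM in Kat6a KO hearts and 26.4 to 40.1 CPM in Kat6a WT hearts. Kat6a WT replicate 5 held the lowest neuronal sum of its group and the highest Isl1.

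The start regions of Foxc1 and Isl1 are printed because they belong to the gene that fell and to the second heart field marker, which varied widely without a detectable change. Each run is the 250 bases before the RefSeq start in GRCm38.p6, 5' to 3' in the sense of the gene. Capitals mark every match to the motifs searched:
Foxc1, chr13:31806396-31806645, plus strand: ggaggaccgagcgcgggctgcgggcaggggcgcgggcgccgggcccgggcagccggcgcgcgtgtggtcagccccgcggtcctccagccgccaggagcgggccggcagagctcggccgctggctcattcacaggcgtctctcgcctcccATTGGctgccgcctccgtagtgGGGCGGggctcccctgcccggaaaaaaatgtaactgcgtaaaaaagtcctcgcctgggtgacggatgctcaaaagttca
Isl1, chr13:116309689-116309938, minus strand: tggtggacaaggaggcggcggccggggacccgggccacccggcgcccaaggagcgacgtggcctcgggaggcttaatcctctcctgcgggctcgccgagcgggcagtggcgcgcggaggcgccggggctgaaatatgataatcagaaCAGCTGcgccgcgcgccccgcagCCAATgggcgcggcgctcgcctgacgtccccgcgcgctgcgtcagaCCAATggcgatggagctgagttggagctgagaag
Both windows are rich in G and C, 70.8% for Foxc1 and 71.2% for Isl1, against a median of 52.4% over 32851 promoter windows of this length, and hold 29 and 33 CpG, against a median of 6. On both strands Foxc1 has 1 GC box (GGGCGG, in 32.7% of all windows) and 1 CCAAT box (CCAAT, in 33.8%), and Isl1 has 2 CCAAT boxes and 1 E-box (CANNTG, in 66.2%). None of the marked matches overlap. A forkhead core (TGTTTAC, in 3.17% of windows), a T-box half-site (GGTGTGA, 3.33%), a MEF3 core (TCAGGTT, 3.49%), a GATA site (AGATAA, 9.99%) and a TATA box (TATAAA, 12.4%) do not occur in either. These are matches of letters only.

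**Figure D2:**
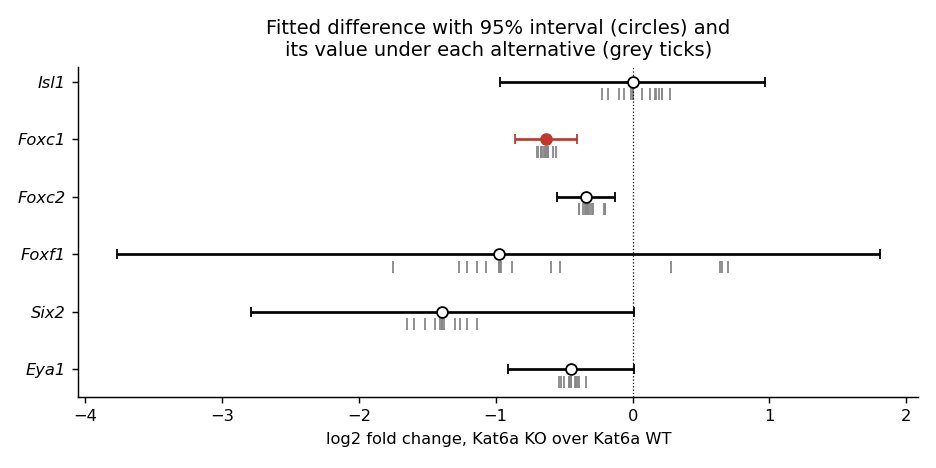
Fitted log2 fold change of each gene, Kat6a KO over Kat6a WT, with its 95% interval, fitted with edgeR. The red circle is past an adjusted p of 0.05, and grey ticks give the same value under each alternative fit. Foxc1 stays between -0.70 and -0.56, while Isl1 and Foxf1 have values on both sides of 0.

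Foxf1, Six2 and Eya1 were low. Foxf1 (chromosome 8, 121084386 to 121088154) had 0.234, 0.508 and 1.12 CPM in Kat6a KO replicates 1 to 3, from 7, 10 and 25 reads. In Kat6a WT replicates 1 to 5 it had 0.169, 0.287, 0.667, 0.87 and 4.04 CPM, from 5, 6, 23, 20 and 100 reads. Kat6a WT replicate 5 stood alone, and Kat6a KO replicate 3 was the next highest of the 8 hearts. The log2 fold change of Foxf1 was -0.98 ± 1.17 (SE; edgeR, adjusted p = 0.795) and turned to 0.28 without Kat6a WT replicate 5 (edgeR, adjusted p = 0.907). In GENCODE M21 an antisense microRNA gene, Gm27530, shares 98 exonic bases with Foxf1, and the long noncoding Fendrr lies 1276 bases away on the other strand.

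Six2 (chromosome 17, 85662736 to 85688254, minus strand) had 5, 2 and 3 reads in Kat6a KO replicates 1 to 3, or 0.102 to 0.167 CPM. In Kat6a WT replicates 1 to 5 it had 3, 10, 16, 5 and 15 reads, or 0.102 to 0.606 CPM. Kat6a WT replicates 2, 3 and 5 were high, while Kat6a WT replicates 1 and 4 lay at or near the Kat6a KO hearts. Six2 passed the low-count filter through its Kat6a WT hearts alone, and its log2 fold change of -1.39 ± 0.67 (SE; edgeR, adjusted p = 0.354) rests on a total of 10 reads in Kat6a KO and 49 in Kat6a WT hearts. At this depth no difference was detectable.

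Eya1 (chromosome 1, 14168953 to 14311035, minus strand) had 1.81, 2.24 and 2.29 CPM in Kat6a KO replicates 1 to 3, from 54, 44 and 51 reads. In Kat6a WT replicates 1 to 5 it had 2.17, 3.40, 2.90, 3.18 and 2.79 CPM. Of the Kat6a WT hearts, 4 lay above all Kat6a KO hearts and replicate 1 lay among them. The log2 fold change of Eya1 was -0.45 ± 0.22 (SE; 95% interval -0.91 to 0.01; edgeR, adjusted p = 0.364), and it passed in none of the 18 alternative fits (adjusted p = 0.259 to 0.696).

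The 6 genes did not order the hearts in the same way, as the map of deviations by heart shows. In Kat6a KO replicates 1 and 2 all 6 genes, and in Kat6a KO replicate 3 the Foxc genes, Six2 and Eya1, were under the mean log2 CPM of the Kat6a WT hearts. Among Kat6a WT hearts, replicate 1 was under that mean for all 6 genes and ranked lowest of the 8 hearts for Foxf1 and Six2. Replicate 2 was highest for Foxc1 and Eya1, replicate 4 for Foxc2, and replicate 5 for Isl1, Foxf1 and Six2. Averaged over the 6 genes, the deviation was -0.607, -0.5 and -0.184 log2 units in Kat6a KO replicates 1 to 3, against -0.669, 0.101, -0.102, 0.016 and 0.654 in Kat6a WT replicates 1 to 5. Six2, with 2 to 5 reads in each Kat6a KO heart, lowers these averages. Over the other 5 genes the deviation was -0.583, -0.366 and -0.0354 in Kat6a KO replicates 1 to 3, against -0.569, 0.0298, -0.206, 0.11 and 0.634 in Kat6a WT replicates 1 to 5. The groups overlapped either way.

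**Figure D3:**
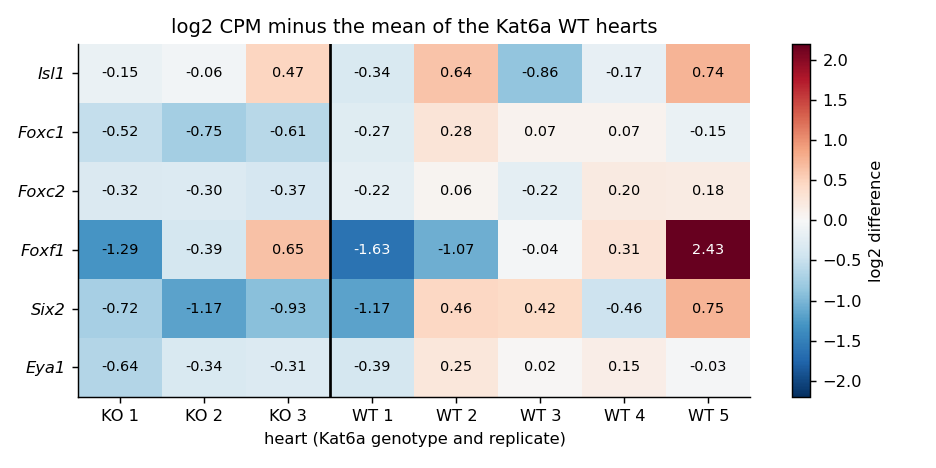
Log2 CPM of each gene in each heart minus the mean of the 5 Kat6a WT hearts, Kat6a KO hearts left of the line. Red is above that mean and blue below. The Foxc1 and Foxc2 rows are blue in all Kat6a KO hearts, and the deepest red is Foxf1 in Kat6a WT replicate 5, at 2.43.

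For the question of how much tissue of each pole a heart carried, lists of other genes were read in the same hearts. In whole hearts, fewer cells of a type and less RNA per cell cannot be told apart. All 8 hearts held heart muscle RNA at high level: Tnnt2, the cardiac troponin T gene, had 2560 to 2910 CPM in Kat6a KO hearts and 2360 to 2640 CPM in Kat6a WT hearts. Of 15 genes of the posterior second heart field and venous pole, 13 were tested, 0 fell and 0 rose (edgeR; median log2 fold change -0.25, against -0.00015 over all genes tested), and 4 had an unadjusted p under 0.05, as 14.2% of all genes tested did; DESeq2 called 0. The levels differed between hearts of the same genotype. Shox2, a homeobox gene of the sinus venosus, had 9.24, 8.39 and 21.1 CPM in Kat6a KO replicates 1 to 3, against 0.846, 5.94, 5.74, 19.4 and 26.8 CPM in Kat6a WT replicates 1 to 5. Osr1, a zinc finger gene of the posterior second heart field, had 3.35, 6.86 and 10.9 CPM in Kat6a KO replicates 1 to 3, against 2.44, 1.05, 8.06, 8.61 and 13.4 CPM in Kat6a WT replicates 1 to 5. Kat6a WT replicate 5 was the highest heart for Foxf1, Osr1 and Shox2, and Kat6a KO replicate 3 was the highest of its group for the same genes. Tbx18, with the smallest p of the list, is a T-box gene of the venous pole and epicardium and averaged 72.0 ± 6.24 CPM in Kat6a KO hearts and 85.9 ± 8.68 CPM in Kat6a WT hearts (edgeR, adjusted p = 0.127), and Tbx5, the next, averaged 93.9 ± 8.46 CPM in Kat6a KO hearts and 108 ± 9.93 CPM in Kat6a WT hearts (adjusted p = 0.195); Tbx5 passed without Kat6a WT replicate 2 (adjusted p = 0.033).

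Genes listed for tissue beside the heart ranged widely in level. Of 19 genes of pharyngeal endoderm and epithelium, 14 were too low to test, and of the 5 tested 0 passed in edgeR, also at an unadjusted p, or in DESeq2, with a median log2 fold change of 0.12. The summed level of the list was 100 to 106 CPM in Kat6a KO hearts and 81.0 to 110 CPM in Kat6a WT hearts. Most of it was Krt8, a keratin, with 59.2 to 61.0 CPM in Kat6a KO hearts and 43.8 to 68.6 CPM in Kat6a WT hearts, and Krt18, its partner, averaging 32.3 ± 2.19 CPM in Kat6a KO hearts and 29.9 ± 2.83 CPM in Kat6a WT hearts. Hhex, a homeobox gene of endoderm and endothelium, had 7.37 to 8.33 CPM in Kat6a KO hearts and 4.44 to 8.52 CPM in Kat6a WT hearts. Foxa2, Pax9 and Nkx2-1, which mark the endoderm, had at most 0.407 CPM in any Kat6a KO heart and at most 0.0870 CPM in any Kat6a WT heart. Of 26 genes of pharyngeal arch mesenchyme and neural crest, 12 were too low to test, Lhx8, Tfap2b and Foxd3 had no read in any heart, and of the 14 tested 0 passed in edgeR, 3 had an unadjusted p under 0.05 (14.2% of all genes did) and DESeq2 called 1, with a median of -0.10. Their summed level was 307 to 319 CPM in Kat6a KO hearts and 295 to 319 CPM in Kat6a WT hearts, and the most abundant were Ets1, Prrx2 and Ednra. Prrx2, a homeobox gene of mesenchyme, averaged 93.4 ± 4.78 CPM in Kat6a KO hearts and 82.2 ± 1.86 CPM in Kat6a WT hearts and missed the threshold (edgeR, adjusted p = 0.0537). Barx1, a homeobox gene of arch mesenchyme, was not called either (adjusted p = 0.195), at 1.47 ± 1.08 CPM in Kat6a KO hearts and 3.13 ± 0.590 CPM in Kat6a WT hearts. Barx1 passed without Kat6a KO replicate 3 (adjusted p = 0.00927), and Prrx2 passed in 4 of 18 alternatives, DESeq2 among them (adjusted p = 0.0244). The mean log2 CPM of the tested arch genes was 1.49 ± 0.0706 in Kat6a KO hearts and 1.78 ± 0.173 in Kat6a WT hearts, with no overlap, and Kat6a WT replicate 2, the highest for Foxc1, was also the highest here at 2.08. Dlx2 and Barx1, low genes that were not called, weigh most in that difference, with log2 fold changes of -1.49 and -1.13. Dlx2 had 3, 14 and 0 reads in Kat6a KO replicates 1 to 3. The summed CPM of the list overlapped between the groups. Chamber muscle moved with the genotype in the other direction: 4 of 18 genes rose and 0 fell in edgeR, 11 had an unadjusted p under 0.05 (14.2% of all genes did) and DESeq2 called 6. The count of risen genes was 1 with the replicate block or without Kat6a KO replicate 1, and 2 without Kat6a WT replicate 3 or without the hearts with Xist RNA (Kat6a WT replicates 4 and 5). The summed level of these genes was 45200 to 48800 CPM in Kat6a KO hearts and 41000 to 44400 CPM in Kat6a WT hearts. The part of the lower mean log2 CPM of the arch list and of the higher chamber muscle level in the lower Foxc1 was not tested.

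**Figure D4:**
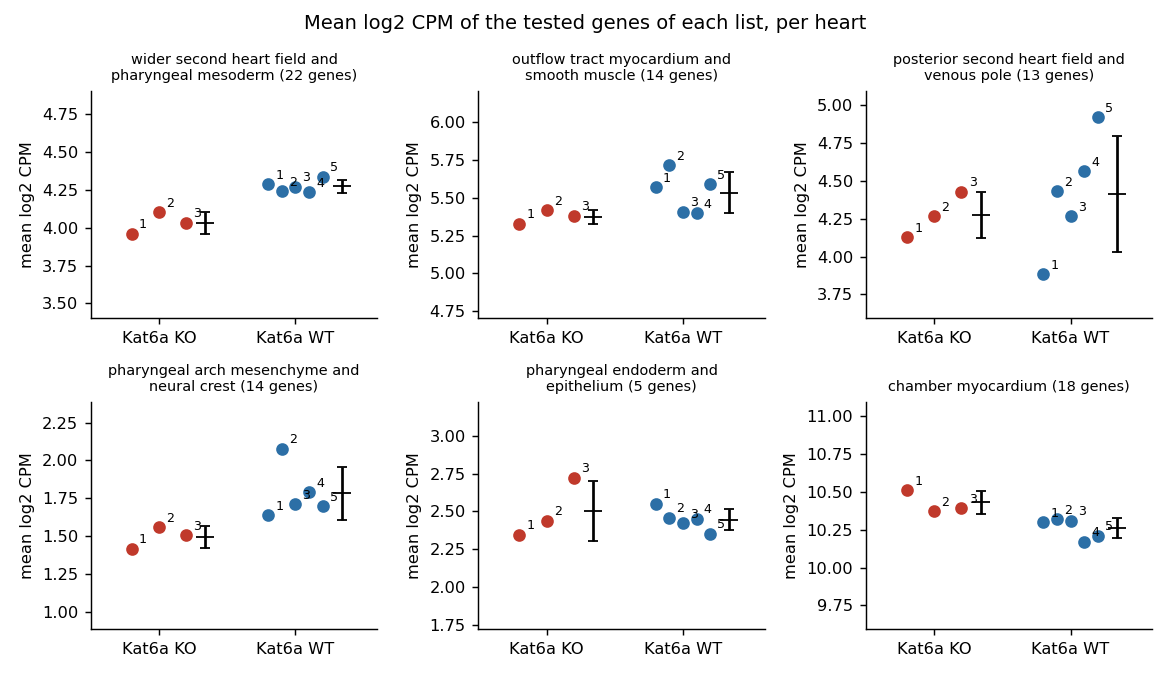
Mean log2 CPM of the tested genes of 6 lists in each heart, Kat6a KO in red and Kat6a WT in blue, with replicate numbers and mean ± SD; every panel spans 1.5 log2 units. Of these lists, venous pole genes spread most among Kat6a WT hearts, up to 4.92 in replicate 5. The list mean of chamber muscle lies higher and that of second heart field genes lower in all Kat6a KO hearts. Of the 22 second heart field genes 16 had a log2 fold change below 0 and 6 above, with a median of -0.12. Nkx2-6, at -3.63, fell farthest and weighs most in that mean.

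Other regulators and signals of the second heart field or the pharyngeal mesoderm moved both ways. Of 25 such genes 22 were tested, and 6 fell, 1 rose and 15 did not pass (edgeR; median log2 fold change -0.12), beside 1.23% fallen and 1.44% risen over all genes. Several of these genes were already known from earlier results of these data to move. Nkx2-6, a homeobox gene of pharyngeal and outflow progenitors, had 0.134, 0.356 and 0.270 CPM in Kat6a KO replicates 1 to 3, against 3.96, 4.69, 2.35, 2.00 and 2.26 CPM in Kat6a WT replicates 1 to 5. Mab21l2, a gene of mesenchyme whose loss in mice affects the heart and body wall, fell by 0.70 ± 0.10 (SE) on the log2 scale, to 13.9 ± 1.89 CPM in Kat6a KO hearts against 22.5 ± 1.34 CPM in Kat6a WT hearts (edgeR, adjusted p = 0.000293). Gata4, Tcf21 and Hand2 also fell, by 0.19 to 0.41. Fgf10, the growth factor made by the anterior second heart field, rose by 1.20 ± 0.17, with 7.76, 8.29 and 7.87 CPM in Kat6a KO replicates 1 to 3, against 4.74, 2.97, 2.90, 3.70 and 3.03 CPM in Kat6a WT replicates 1 to 5. Fgf10 was higher in all Kat6a KO hearts, while Isl1 overlapped. Isl1 marks second heart field progenitors more widely than Fgf10 and is also expressed in ganglia. Which cells carried either RNA in these hearts was not tested. Fgf8 averaged 1.74 ± 0.636 CPM in Kat6a KO hearts and 1.40 ± 0.726 CPM in Kat6a WT hearts (adjusted p = 0.786), and Tbx1, Msc and Hoxb1 were under the filter, Tbx1 with at most 0.407 CPM in Kat6a KO hearts and 1.96 CPM, in replicate 2, in Kat6a WT hearts.

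These calls differed in how they held. Nkx2-6, Mab21l2 and Fgf10 passed in all 18 alternative fits. Hand2, Gata4 and Tcf21 lost theirs in 12, 5 and 9 of 18 fits. For each of these genes the fits without Kat6a KO replicate 1 and without the hearts with Xist RNA were among them. Without the 2 Xist hearts the count was 2 fallen, Nkx2-6 and Mab21l2, and 1 risen, beside 0.774% fallen and 1.1% risen over all genes in that fit; leaving out Kat6a KO replicate 1 also gave 2 fallen, and leaving out replicate 2 of that group gave 3. Mab21l2 shares 1097 of its exonic bases with Lrba on the other strand, Hand2 461 with Hand2os1, Fgf10 123 with Gm16263 and Nkx2-6 56 with an antisense gene, so their counts are uncertain where the counting ignored strand.

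**Figure D5:**
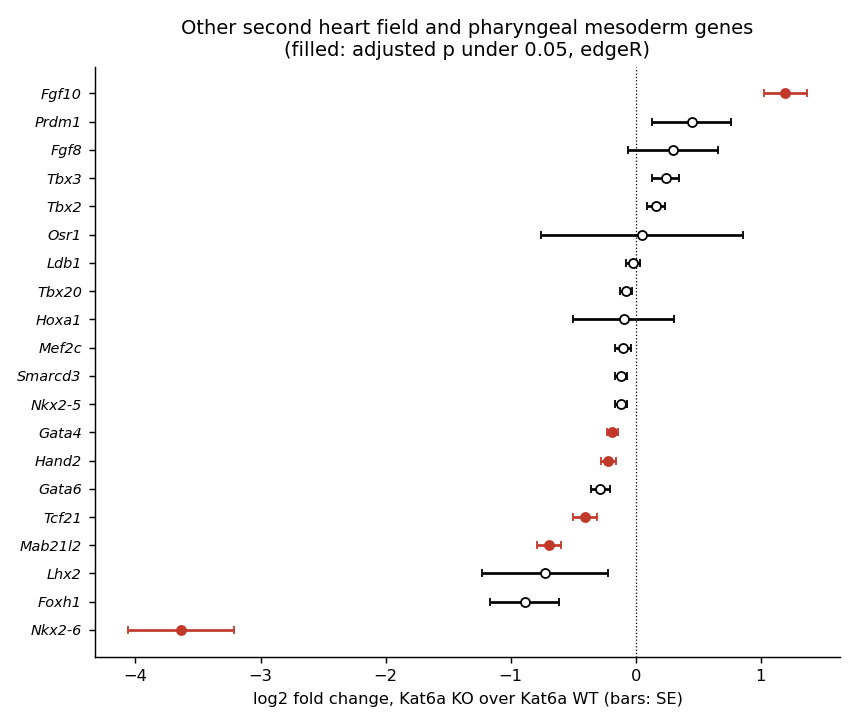
Log2 fold change, Kat6a KO over Kat6a WT, with its SE, of 20 of the 22 tested second heart field and pharyngeal mesoderm genes; filled red points were called by edgeR at 0.05. Nkx2-6 lies farthest to the left at -3.63 and Fgf10 farthest to the right at 1.20.

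At the outflow tract 14 genes were tested, of which 2 fell, 2 rose and 10 did not pass (median log2 fold change -0.03). Over all genes tested 1.23% fell and 1.44% rose. Of the 14, 6 had an unadjusted p under 0.05 (14.2% of all genes did) and DESeq2 called 4 (3.85% of all genes). Nrp2, a receptor of semaphorins and VEGF-C, fell by 0.85 ± 0.12 (SE) on the log2 scale, with 23.5, 25.3 and 29.0 CPM in Kat6a KO replicates 1 to 3, against 52.0, 53.0, 37.0, 47.5 and 44.2 CPM in Kat6a WT replicates 1 to 5 (edgeR, adjusted p = 0.00147). Its partner receptor Plxna2 rose by 0.23 ± 0.06 (adjusted p = 0.0461), and Sema3c, the semaphorin of outflow muscle, averaged 72.4 ± 4.36 CPM in Kat6a KO hearts and 87.9 ± 15.7 CPM in Kat6a WT hearts (adjusted p = 0.462). Tagln, an actin-binding protein of smooth and early heart muscle, rose by 0.35 ± 0.06, to 653 ± 13.4 CPM in Kat6a KO hearts against 512 ± 47.9 CPM in Kat6a WT hearts (adjusted p = 0.00377). Wnt11 fell by 0.27 ± 0.07 (adjusted p = 0.048). Plxna2 and Wnt11 were called in fewer fits, being lost in 11 and 9 of 18, with adjusted p-values reaching 0.202 and 0.22, and Nrp2 lost it with the replicate block (0.0902). Plxna2 and Wnt11 were not called without Kat6a KO replicate 1, and Plxna2 also not without the hearts with Xist RNA. Tagln shares 1241 of 1988 exonic bases with the antisense gene Gm48529.

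Among relatives, partners and targets of the 6 genes, Lhx9, Gata4 and Hand2 fell and Fgf10, Tie1 and Msx2 rose. The edgeR calls in each of these lists stand beside 1.23% fallen and 1.44% risen over all genes tested. Of 15 other genes around Six2 and Eya1, such as Six4, Dach1 and Sall1, 9 were tested, 0 passed in edgeR or DESeq2 and 3 had an unadjusted p under 0.05, against 14.2% of all genes (median log2 fold change -0.17, 8 of 9 below 0), the lowest p being that of Sall1, a zinc finger gene, at 39.6 ± 2.75 CPM in Kat6a KO hearts and 45.9 ± 2.12 CPM in Kat6a WT hearts (edgeR, adjusted p = 0.103). Six4 averaged 4.74 ± 0.364 CPM in Kat6a KO hearts and 6.30 ± 1.21 CPM in Kat6a WT hearts (adjusted p = 0.258). Of 28 other forkhead genes 17 were tested, 0 passed in edgeR or DESeq2 and 3 had an unadjusted p under 0.05 (14.2% of all genes did), with a median of 0.01; Foxh1, a partner of Smad proteins, averaged 1.40 ± 0.303 CPM in Kat6a KO hearts and 2.57 ± 0.657 CPM in Kat6a WT hearts (adjusted p = 0.102), and Foxp4 109 ± 6.33 CPM in Kat6a KO hearts and 126 ± 13.2 CPM in Kat6a WT hearts (adjusted p = 0.186). Foxh1 passed without Kat6a WT replicate 2 (adjusted p = 0.0333) and Foxp4 without Kat6a WT replicate 1 (adjusted p = 0.0436), and the list had up to 2 fallen genes on leaving out 1 heart. Of 20 LIM homeodomain relatives and cofactors of Isl1 13 were tested and 1 fell, Lhx9, by 1.24 ± 0.17 to 2.81 ± 0.516 CPM in Kat6a KO hearts against 6.58 ± 0.665 CPM in Kat6a WT hearts (adjusted p = 0.000254), while Ldb1, the adaptor that Isl1 binds, had 109 to 114 CPM in Kat6a KO hearts and 107 to 122 CPM in Kat6a WT hearts. Among 14 genes known as targets of Isl1 in the heart 12 were tested, and Gata4 and Hand2 fell and Fgf10 rose, with a median of -0.11. Among 20 genes linked to Foxc1, Foxc2 or Foxf1 17 were tested, and Fgf10, Tie1 and Msx2 rose and 0 fell, with a median of 0.03. The calls of Tie1, an endothelial receptor, and of Msx2, a homeobox gene of the cushions, were each lost in 11 of 18 alternative fits. Both were lost without the hearts with Xist RNA, and that of Tie1 also without Kat6a KO replicate 1.

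Likeness of pattern was measured as the root mean square difference in log2 CPM over the 8 hearts, each gene centred on its own mean, among 11611 genes of average log2 CPM of at least 1. For Isl1, whose own deviation was 0.509, the nearest was Ngfr at 0.193, a neurotrophin receptor with 5.32, 4.57 and 7.02 CPM in Kat6a KO replicates 1 to 3, against 3.72, 8.33, 3.68, 4.61 and 7.11 CPM in Kat6a WT replicates 1 to 5; Crabp2 (0.275) and Sfrp2 (0.309) followed. For Foxf1, with a deviation of 1.22, they were Shisa6 (0.73), Vsnl1 (0.736) and Osr1 (0.745). Vsnl1, a calcium sensor gene, had 20.5, 18.2 and 32.5 CPM in Kat6a KO replicates 1 to 3, against 10.9, 14.0, 16.8, 32.3 and 42.2 CPM in Kat6a WT replicates 1 to 5. For Foxc1 (0.344) they were Ak5, Asic1 and Il3ra (0.106 to 0.116), for Foxc2 (0.218) Basp1, Itga9 and Gata6 (0.0839 to 0.0868), for Eya1 (0.284) Myo1d and Trp53i11 (0.113 and 0.117), and for Six2 (0.733) Lamc3, Sytl2 and Ntf5 (0.39 to 0.432). All hearts and their depth are shared by these values, and the Kat6a KO difference is part of each pattern.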

How the data were processed

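RNA of 8 hearts (E10.5) was counted per gene. Per the labels' protocols a TruSeq stranded kit was used, and per the submitters' processing notes bcl2fastq and featureCounts were run on mm10; their versions, the aligner and the strand setting are not stated there. The authors deposited counts, not normalized, under Entrez IDs, beside a gene length; the files of single hearts hold the same counts as the table, which was used. Symbols and positions are from RefSeq GRCm38.p6 (25275 of 27179 IDs), the assembly of mm10, and overlaps and words of 50 bases from GENCODE M21. Counts were filtered with filterByExpr, scaled by trimmed mean of M values and tested with edgeR 4.0.16 (robust quasi-likelihood test, Benjamini-Hochberg, threshold 0.05; R 4.3.3, limma 3.58.1, DESeq2 1.42.0, Python 3.11.15). The biological coefficient of variation was 9.1%. SE is log2 fold change divided by the root of F. In the library descriptions the numbers of Kat6a KO hearts all precede those of Kat6a WT hearts, so that order and genotype cannot be told apart. Litters are not given, so p-values reflect only the spread among these hearts. The 6 genes, the 15 lists and the alternatives were chosen with earlier results of these data known. Genes named are the 6, up to 4 called genes per list or the 2 of smallest p where none passed, a few genes named in any case, the 3 nearest in pattern and the neighbours; some genes that this rule names are not reported here; Sema3c, Shox2, Osr1, Tnnt2, Ldb1, Tubb3, Ets1, Ednra, Krt8, Egr1, Atf3 and Myod1 were added as references after their values were seen, and so were the endoderm genes Foxa2, Pax9 and Nkx2-1. The procedure was tested on simulated data. Kat6a itself had 137 ± 3.81 CPM in Kat6a KO and 145 ± 6.92 CPM in Kat6a WT hearts (edgeR adjusted p = 0.529); the deleted part of the gene is not known here, so this is no check of the genotype.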

Additional observations from a re-analysis of the deposited data

Results flagged for a closer look

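Foxf1 in Kat6a WT replicate 5 stood at 4.04 CPM, far from the other 4 Kat6a WT hearts, which had 0.169 to 0.87 CPM. Its gap to the nearest made up 0.819 of the group's range in CPM, against a critical value of 0.71 for 5 samples. The log2 scale was used for the lists but not for the genes. On it Foxf1 stood at 2.04 in that heart, against -2.02 to -0.077 in the other 4, and the flag depends on the scale. The mean log2 CPM of the listed relatives and partners of Six2 and Eya1 was 2.63 in Kat6a WT replicate 2, below 2.99 to 3.09 in the other 4 Kat6a WT hearts; Osr1, a gene of that list, had 1.05 CPM there. Among 22 values looked at, 6 genes and 16 lists with the 6 genes as a list, chance alone flags about 1 in 20 where values are normally distributed.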

How the results depend on the processing

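Foxc1 kept its call and Isl1, Foxf1, Six2 and Eya1 did not pass under any alternative that tested them. Isl1 changed sign with DESeq2 (-0.0115) and with DESeq2 size factors in edgeR (-0.00017), and ranged from -0.22 to 0.22 on leaving out each heart. Foxc2 passed with DESeq2 (-0.34) and ranged from -0.395 to -0.29 on leaving out each heart. Foxf1 changed sign with Xist as a covariate (0.655), with the replicate block (0.70) and without the hearts with Xist RNA (0.64), and ranged from -1.75 to 0.28 on leaving out each heart; Fgf8 ranged from -0.0447 to 0.67. The cause was not tested. Six2 was under the filter in 5 of the alternatives and Foxf1 in 1, which gave no value. The number of genes called was 403, or 181 with the replicate block and 194 to 496 on leaving out each heart, lowest without Kat6a KO replicate 1. It was 580 with DESeq2 and 472 without a filter. Of the 232 listed genes 165 were tested and 20 passed, beside 2.67% of all genes tested. The count was 12 with Xist as a covariate, 12 with the replicate block and 11 without the hearts with Xist RNA. On leaving out each heart it was 11 to 22, with 11 without Kat6a KO replicate 1 and 13 without Kat6a WT replicate 3 or 4. Replicate numbers did not pair the hearts: the correlation of deviations between hearts of the same number was 0.0659, -0.119 and -0.0538, so the block is not read as a pairing. The mean over the 6 genes differed by -0.327 log2 units, and by -0.307 without Six2, an alternative chosen after seeing the data. These 2 values add a larger constant to each CPM before the log than the deviations by heart do, which shrinks differences of low genes. On the log2 CPM of those deviations the mean over the 6 genes was 1.75 in Kat6a KO and 2.18 in Kat6a WT hearts. Six2 had 2 to 16 reads a heart, and the coefficients of variation among Kat6a WT hearts were 45.8% for Isl1 and 133% for Foxf1.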

Other observations

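Genes of skeletal muscle and of endoderm-derived organs gave a few values outside the comparisons above. Over all genes tested edgeR called 1.23% as fallen and 1.44% as risen, and DESeq2 called 3.85%. Of 9 genes listed for arch muscle 7 were too low to test, with no read of Myf5 in any heart and Myod1 at no more than 0.0479 CPM, while Tnnt3, the fast skeletal troponin T gene, rose by 0.81 ± 0.12 (SE) on the log2 scale, to 18.4 ± 3.86 CPM in Kat6a KO hearts against 10.6 ± 1.14 CPM in Kat6a WT hearts (edgeR, adjusted p = 0.000805). Of 17 neuronal and ganglion genes 7 were tested and Hand2, which the heart expresses itself, passed in edgeR, while DESeq2 called 2 (median log2 fold change -0.22); Tubb3, a neuronal tubulin, averaged 14.55 ± 1.93 CPM in Kat6a KO hearts and 20.7 ± 5.17 CPM in Kat6a WT hearts (adjusted p = 0.258). In the chamber muscle list Csrp3, Myl3, Ryr2 and Tnni3 rose, by 0.20 to 0.30, with a median of 0.17 over the list. Csrp3 held in all 18 alternative fits, while Tnni3 lost its call in 11 and Myl3 and Ryr2 in 4 each. Tnni3, Myl3 and Ryr2 were not called without Kat6a KO replicate 1, and Tnni3 and Myl3 also not without the hearts with Xist RNA. Immediate early and heat shock genes, read for tissue handling, had 0 calls among 14 in edgeR and DESeq2, 1 unadjusted p under 0.05 (14.2% of all genes did) and a median of 0.21. Kat6a KO replicate 1 stood apart, with a mean log2 CPM of 4.92 over the list against 4.09 to 4.46 in the other 7 hearts, with Egr1 at 55.7 CPM against at most 15.3 CPM and Atf3 at 32.9 CPM against 10.4 to 15.3 CPM; leaving that heart out took the genes called over the whole table to 194, against 403 with it, and the part of this in the calls was not tested. Foxc1 passed without it (adjusted p = 0.0142). In the same list Jun was at 228, 135 and 135 CPM in Kat6a KO replicates 1 to 3, against 108 to 143 CPM in Kat6a WT hearts, and Hsph1 at 138 ± 12.1 CPM in Kat6a KO hearts and 157 ± 15.4 CPM in Kat6a WT hearts.

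Of 15 genes of the septum transversum, liver and lung bud 10 were tested, 0 passed in edgeR or DESeq2 and 3 had an unadjusted p under 0.05, against 14.2% of all genes (median log2 fold change -0.04). Afp, the alpha-fetoprotein gene of liver and yolk sac endoderm, had 1.04, 0.661 and 12.1 CPM in Kat6a KO replicates 1 to 3, against 0.0677, 0.0479, 0.029, 0 and 0.566 CPM in Kat6a WT replicates 1 to 5. Afp missed the threshold (edgeR, adjusted p = 0.176), passed with the replicate block (0.00125) and without robust moderation (0.0134), and got no adjusted p from DESeq2. Kat6a KO replicate 3, the highest for Afp, was also the Kat6a KO heart highest for Isl1, Foxf1, Osr1 and Shox2.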
